A study of Peromyscus californicus with 17 samples.

Results

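The genes described here are natural killer and cytotoxic genes in the lung of the California mouse, Peromyscus californicus, a monogamous deer mouse. They were chosen by symbol, and the 7 symbols were Ncr1, Gzma, Gzmb, Prf1, Nkg7, Eomes and Tbx21. Of the 27786 genes of the table, 5 carry one of these symbols: Gzma, Prf1, Nkg7, Eomes and Tbx21. No row has the symbol Ncr1 or Gzmb, and these 2 genes were not analysed here. All 5 genes found passed the filter on low values, which left 15343 genes for the tests.

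RNA from whole lung was sequenced from 17 males of the genetically diverse stock IS, aged 12 to 15 months, 1 library per animal. The bonded group (B1 to B6, 6 animals) had lived with a female for about 4 months when the lungs were taken. The bond-disrupted group (BD1 to BD6, 6 animals) had been paired equally long, after which the male was taken out of the mating cage, and its lungs were collected 7 days later. The virgin group (V2 to V6, 5 animals) was of similar age and lived in groups, which the sample descriptions give as 3 to a cage. No animal carried a transgene or received an agent, as far as the sample descriptions and the methods go. Bonding history and housing changed together, so they cannot be told apart. Animals of the bonded and bond-disrupted groups that share a number are siblings, and the virgins are siblings or, in 2 cases, cousins of their namesakes. The comparisons ask whether bonding history goes with the level of these genes in the lung.

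Natural killer cells and cytotoxic CD8 T cells kill infected or transformed cells by releasing the contents of granules onto them. Prf1 encodes perforin, which forms pores in the target's membrane, and Gzma encodes granzyme A, a serine protease that enters the target through them. Nkg7 encodes a granule membrane protein that takes part in the release of granules. Tbx21 (T-bet) and Eomes are related T-box transcription factors that direct the maturation of natural killer cells and of effector and memory CD8 T cells. In the lung these lymphocytes are a minority among epithelial, endothelial and myeloid cells, so their transcripts are scarce in RNA from the whole organ.

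The values needed a correction before animals could be compared. Expression was deposited as FPKM, a count of fragments scaled to gene length and to library depth, but the length used in each of the 17 columns was that of another gene. B1 was divided by the length of the preceding gene, B2 by that of the gene before it, and so on to the last column, V6. For Eomes the length that divided the value ranged from 109 to 9235 bases over the 17 columns, where its own length was 3520 bases. The deposited Eomes value of B3 was therefore 45.4 FPKM, from 338 reads divided by 109 bases, while the same reads gave 1.41 FPKM on the length of Eomes. The deposited value of BD3 was 0.479 FPKM, from 194 reads divided by 9235 bases, and came to 1.26 FPKM on its own length. For Tbx21 the deposited values spanned a 154-fold range over the animals, and the values on its own length of 2463 bases a 6.53-fold range. The ranges narrowed likewise from 112-fold to 22.8-fold for Gzma, from 80.8-fold to 6.94-fold for Nkg7, from 46.0-fold to 5.58-fold for Prf1 and from 94.9-fold to 2.61-fold for Eomes. All levels given from here on are FPKM on the gene's own length.

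**Figure D1:**
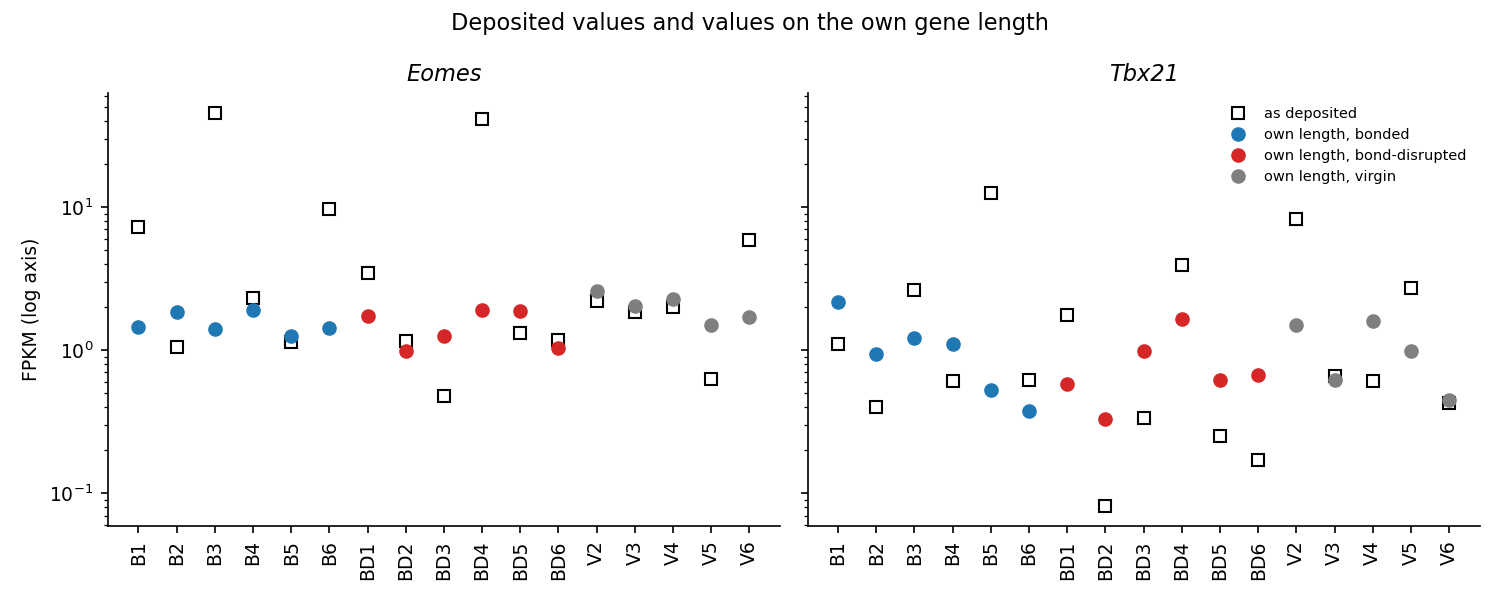
FPKM on a log axis for Eomes (left) and Tbx21 (right) in each of the 17 animals, as deposited (open squares) and on the gene's own length (filled circles, coloured by group). The deposited Eomes value of B3 sits at 45.4 FPKM and that of BD3 at 0.479 FPKM, whereas on the own length these animals lie at 1.41 and 1.26 FPKM.

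In units of 1000000 reads, depth was 30.8 to 68.2 in the bonded group, 43.9 to 59.4 in the bond-disrupted group and 38.0 to 44.9 in the virgin group. Over these libraries Gzma was represented by 4 to 82 reads, Nkg7 by 28 to 262, Tbx21 by 36 to 241, Prf1 by 88 to 462 and Eomes by 152 to 400. Among low read numbers, taken from values that had been divided by the length of a small RNA, only 10.6% to 17.05% in a library were odd. Nkg7 itself had odd numbers in several animals (103 in B1, 177 in B3) and fractions in others (76.66 in B5), so this share need not hold for it. The counting errors given here assume that both ends of a fragment were counted, so that independent fragments number the reads divided by 2, and this was not tested further. Sftpc, a surfactant gene of the alveolar epithelium, stood at 12001 to 27993 FPKM, so the defining lung marker was abundant in every library. BD6 was the library least like the others, with a median correlation of 0.942 to them over all tested genes, against 0.961 to 0.974 for the other libraries, and the fold changes were also computed without it and without every other animal in turn.

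Of the granule genes, Nkg7 had the highest level, with 4.87 ± 1.96 FPKM over all animals (SD, n = 17). In the bonded group it ran from 1.81 FPKM in B6 over a median of 5.38 to 6.34 in B1, and in the bond-disrupted group from 1.28 in BD2 over 4.67 to 8.86 in BD4. The virgins had 5.40 (V2), 3.40 (V3), 8.0 (V4), 5.45 (V5) and 2.76 FPKM (V6). The 3 groups overlapped almost completely, and both the lowest and the highest animal belonged to the bond-disrupted group.

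Prf1 came to 2.29 ± 0.976 FPKM over all animals (SD, n = 17). Bonded animals ranged from 0.989 FPKM in B6 over a median of 2.50 to 3.82 in B4, and bond-disrupted animals from 0.790 in BD2 over 1.83 to 2.81 in BD4. The virgins showed 2.39 (V2), 2.20 (V3), 4.41 (V4), 3.10 (V5) and 1.57 FPKM (V6). The 5 highest animals were bonded or virgin, but the groups overlapped, as B6 and V6 lay among the 5 lowest.

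Gzma was the most variable of the 5 genes and the one with the fewest reads, at 1.20 ± 0.782 FPKM (SD, n = 17). It ran from 0.111 FPKM in B6, which rested on 4 reads, over a median of 1.14 to 2.10 in B1 among the bonded animals. In the bond-disrupted group it ran from 0.265 in BD1 over 0.851 to 1.73 in BD3. The virgins had 2.37 (V2), 0.734 (V3), 1.59 (V4), 2.54 (V5) and 0.508 FPKM (V6). Each group held both low and high animals.

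Of the transcription factors, Eomes had 1.66 ± 0.431 FPKM (SD, n = 17) and varied least. It ran from 1.249 FPKM in B5 over a median of 1.43 to 1.92 in B4 in the bonded group, and from 0.994 in BD2 over 1.49 to 1.91 in BD4 in the bond-disrupted group. The virgins had 2.59 (V2), 2.05 (V3), 2.28 (V4), 1.51 (V5) and 1.70 FPKM (V6). The 3 highest animals of all 17 were virgins, while V5 and V6 lay within the range of the paired groups.

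Tbx21 had the lowest mean, 0.961 ± 0.523 FPKM (SD, n = 17). Bonded animals ranged from 0.375 FPKM in B6 over a median of 1.02 to 2.17 in B1, and bond-disrupted animals from 0.332 in BD2 over 0.647 to 1.65 in BD4. The virgins had 1.499 (V2), 0.615 (V3), 1.61 (V4), 0.984 (V5) and 0.452 FPKM (V6). The groups overlapped over nearly their whole ranges.

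**Figure D2:**
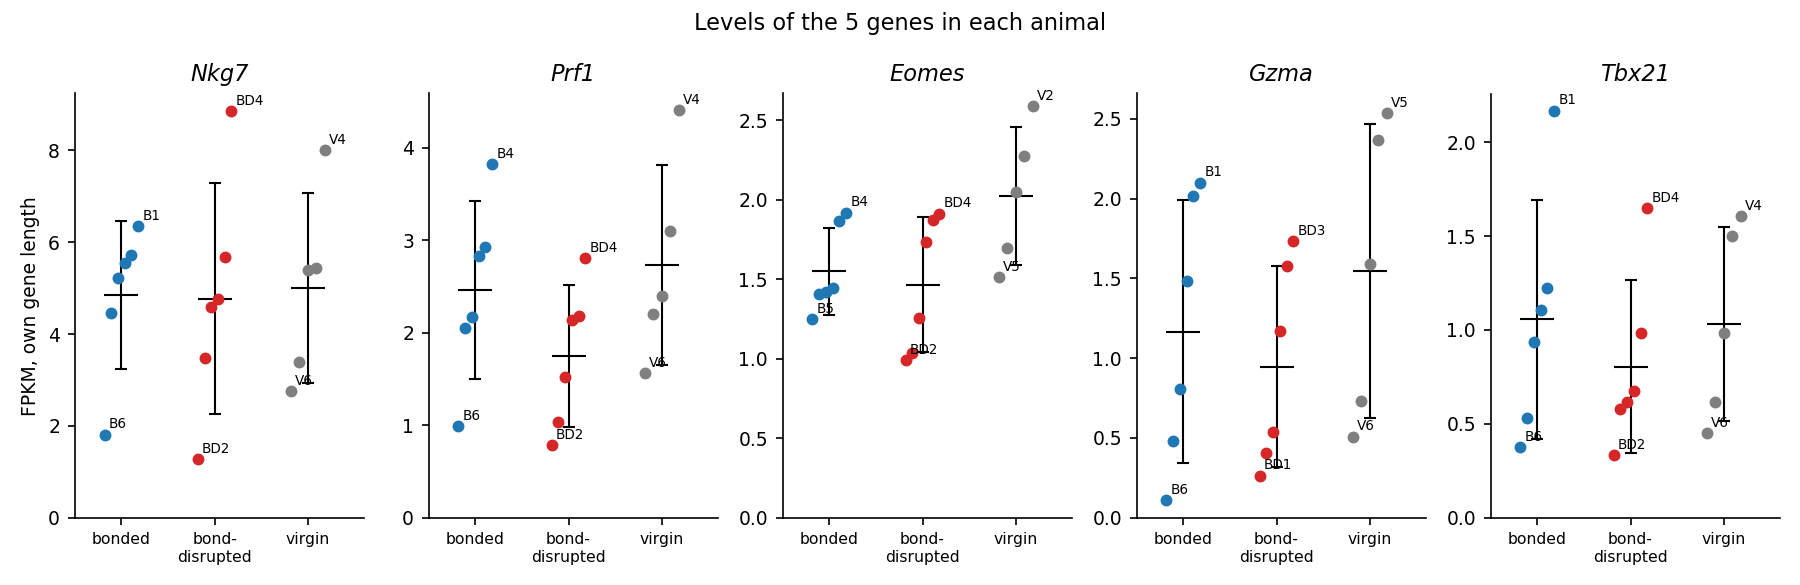
FPKM on the own gene length (linear axes from 0, a scale for each gene) of Nkg7, Prf1, Eomes, Gzma and Tbx21 by group, 1 point per animal, with the mean and SD of each group as a bar and whiskers and the lowest and highest animal of each group named. BD2 was the lowest bond-disrupted animal in 4 of the 5 genes and B6 the lowest bonded animal in 4 of the 5, and the groups overlapped for every gene.

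The order of the mean levels was Nkg7, Prf1, Eomes, Gzma and Tbx21. Nkg7 stood above Prf1 in 17 of 17 animals, with a mean log2 ratio of 1.08 ± 0.37 (SD). The later neighbours in this order were not separated in the same way: Prf1 exceeded Eomes in 11 of 17 animals, Eomes exceeded Gzma in 12 and Gzma exceeded Tbx21 in 10, and the SD of each of these log2 ratios (0.62, 1.22 and 0.85) was larger than its mean (0.37, 0.83 and 0.11). Among the 15343 tested genes even Nkg7 was of low abundance, since 36.9% of them had a lower mean, and for Tbx21 the share was 10.7%.

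The depth sets how precisely each animal's level is known. Within groups, the SD of log2 FPKM was 1.302 for Gzma against 0.45 expected from counting alone, 0.76 against 0.22 for Nkg7, 0.65 against 0.14 for Prf1, 0.83 against 0.23 for Tbx21 and 0.34 against 0.13 for Eomes.

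Between bond-disrupted and bonded animals no difference in the 5 genes passed the test. All 5 coefficients were below 0, with a difference in log2(FPKM + 1) of −0.33 ± 0.23 (SE) for Prf1, −0.17 ± 0.21 for Tbx21, −0.12 ± 0.29 for Gzma, −0.08 ± 0.31 for Nkg7 and −0.06 ± 0.12 for Eomes (limma, two-sided, 6 against 6 animals, adjusted p 0.875 to 0.980). A gene was called when its adjusted p was under 0.1 and its difference in log2(FPKM + 1) was at least 1 in either direction. This equals about 2-fold for abundant genes and more than that near 1 FPKM. The bonded mean of Tbx21 on this scale was 0.986, so a fall by 1 was out of reach for it. All 5 genes already failed on the adjusted p. Of the 5 genes 0 were called, and of all tested genes 0.0% were. At an unadjusted p under 0.05, 0 of the 5 genes passed, against 5.93% of all tested genes. The median coefficient of the 5 genes was −0.12, and that of all tested genes 0.00. The former depended on single animals: it was −0.03 without B1 or B2, −0.06 without B4, −0.04 without BD2, −0.28 without B6, −0.20 without BD3 and −0.26 without BD4. A coefficient above 0 was found for 51.6% of all genes. The signs of the 5 genes are not separate observations, since Prf1, Nkg7, Gzma and Tbx21 varied together over the animals. The interval of Prf1 ran from −0.82 to 0.15 and that of Eomes from −0.31 to 0.19, both at 95% confidence. BD2, lowest of all 17 animals in Prf1, Nkg7, Eomes and Tbx21, weighed on these values: without it the coefficient of Nkg7 turned to 0.16. With each animal left out in turn, the coefficients ran from −0.28 (without B6) to 0.16 (without BD2) for Nkg7, from −0.30 (B6) to 0.00 (B1) for Gzma, from −0.48 (B6) to −0.22 (BD2) for Prf1, from −0.29 (BD4) to −0.03 (B1) for Tbx21 and from −0.11 (BD4) to −0.00 (BD2) for Eomes. In RNA from whole lung, a lower level through fewer cells of a type cannot be told apart from one through less of the transcript per cell.

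Between virgin and bonded animals no difference passed the test either. Eomes had the smallest p, with 2.03 ± 0.434 FPKM in virgins (SD, n = 5) against 1.55 ± 0.274 in bonded animals (SD, n = 6), a difference in log2(FPKM + 1) of 0.24 ± 0.12 (SE, limma adjusted p = 1.0, exact permutation p = 0.0649). Each of the 5 virgins lay above the bonded median of Eomes, although the ranges overlapped. Each virgin also exceeded its bonded namesake, a sibling or cousin, in Eomes. The values were 2.59 against 1.87 FPKM (V2, B2), 2.05 against 1.41 (V3, B3) and 2.28 against 1.92 (V4, B4). They were 1.51 against 1.25 (V5, B5) and 1.70 against 1.42 FPKM (V6, B6). When relatives were fitted as a replicate block, the Eomes difference came to 0.25 ± 0.12 (SE, limma adjusted p = 0.999). The differences of the granule genes were 0.25 ± 0.31 for Gzma, 0.11 ± 0.24 for Prf1 and 0.03 ± 0.33 for Nkg7, and that of Tbx21 was −0.00 ± 0.22 (limma, adjusted p = 1.0 for each). For Gzma too each virgin lay above its bonded namesake, but for Prf1, Nkg7 and Tbx21 some lay below. Apart from the block, these pairs were not tested. Of the 5 genes 0 were called, as were 0.0% of all genes, and 0 of 5 passed an unadjusted p under 0.05, against 3.86% of all genes. The median over the 5 genes was 0.11, beside 0.01 over all tested genes, and came to −0.04 without B6, −0.03 without V4, 0.07 without V5, 0.22 without B4 and 0.24 without V6. Without V4 or without B6 the coefficients of Prf1 and Nkg7 fell below 0, to −0.03 and −0.13 without V4 and to −0.04 and −0.17 without B6, and that of Nkg7 came to −0.01 without V2 or V5. The coefficient of Gzma ran from 0.08 without B6, the animal with 4 reads, to 0.42 without V6, that of Tbx21 from −0.11 without B6 to 0.13 without B1, and that of Eomes from 0.18 without V2 to 0.30 without V5.

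Against bond-disrupted animals, virgins had coefficients above 0 in 5 of 5 genes, where 51.7% of all genes did. Prf1, Nkg7, Gzma and Tbx21 rose and fell together over the animals, so these 5 signs are not separate observations. The coefficient of Nkg7 was below 0 without BD2 (−0.13) or V4 (−0.05), and that of the other genes stayed above 0 with any animal left out, at 0.24 to 0.36 for Eomes, 0.30 to 0.57 for Prf1, 0.23 (without V5) to 0.54 for Gzma and 0.07 (without V4) to 0.29 (without BD4) for Tbx21. Eomes again had the smallest p, with 2.03 ± 0.434 FPKM (SD, n = 5) against 1.47 ± 0.422 (SD, n = 6). Its difference in log2(FPKM + 1) was 0.30 ± 0.12 (SE, limma p = 0.0270), with an interval from 0.04 to 0.56, but it did not pass the correction over all genes (adjusted p = 0.948), and an exact permutation test of the same values gave p = 0.0736. All 5 virgins lay above the bond-disrupted median of Eomes, yet V5 and V6 fell below the highest bond-disrupted animals. Prf1 followed with 0.45 ± 0.24 (SE, limma adjusted p = 0.948, exact permutation p = 0.0996, interval −0.06 to 0.95) and 4 of 5 virgins above the bond-disrupted median. The differences of Gzma (0.37 ± 0.31), Tbx21 (0.17 ± 0.22) and Nkg7 (0.12 ± 0.33) were about as large as their errors or smaller. Of the 5 genes 0 were called, as were 0.0% of all genes, and 1 of 5 passed an unadjusted p under 0.05, against 4.3% of all genes. The median over the 5 genes was 0.30, beside 0.01 over all tested genes, and stayed between 0.23 and 0.35 with each animal left out in turn. The 3 comparisons share animals, so the virgin group's values enter both of its comparisons and these are not separate evidence.

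**Figure D3:**
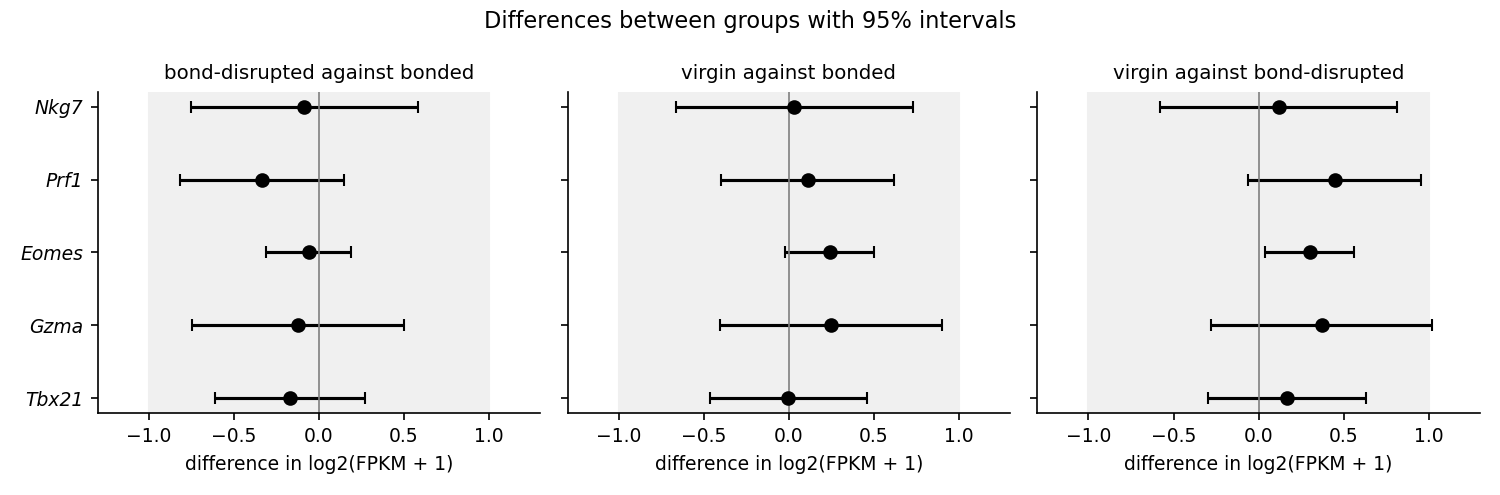
Differences in log2(FPKM + 1) for the 5 genes in the 3 comparisons (first group minus second), as limma coefficients (points) with 95% intervals (lines); the grey band spans −1 to 1. Of the 15 intervals 14 lie inside the band, 1 leaves out 0 (Eomes, virgin against bond-disrupted), and that of Gzma, virgin against bond-disrupted, reaches 1.02.

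The scale compresses low values. For genes near 1 FPKM a difference in log2(FPKM + 1) understates the fold, and with a pseudocount of 0.1 the difference between virgins and bond-disrupted animals came to 0.65 for Prf1, 0.69 for Gzma, 0.46 for Eomes and 0.33 for Tbx21, that between virgins and bonded animals to 0.54 for Gzma, and that between bond-disrupted and bonded animals to −0.49 for Prf1 and −0.31 for Tbx21, none of which passed the test. On recovered reads with voom, where no FPKM pseudocount enters, Gzma came to 0.77 between virgins and bonded animals and to 0.72 between virgins and bond-disrupted animals, and the median over the 5 genes to −0.08 between bond-disrupted and bonded animals, 0.22 between virgins and bonded and 0.47 between virgins and bond-disrupted animals, again with none past the test. Depth was related by rank to 2 of the genes over all animals. Over the 17 animals the log2 level of Gzma fell with depth by rank (rho = −0.60, permutation p = 0.0125, adjusted p = 0.0430) and so did that of Prf1 (rho = −0.59, permutation p = 0.0143, adjusted p = 0.0430), although Pearson's r was −0.41 for Gzma (permutation p = 0.106) and −0.36 for Prf1 (permutation p = 0.159), with an adjusted p of 0.477 for each over the 6 relations computed. With the group means removed, rho was −0.57 for Gzma (permutation p = 0.0349) and −0.40 for Prf1 (permutation p = 0.122), and the groups differed in sign: r was −0.62 for Gzma and −0.53 for Prf1 among the bonded animals and −0.71 and −0.65 among the virgins, but 0.296 and 0.551 among the bond-disrupted animals. Without the deepest and the shallowest library, B3 and B4, r was −0.33 for Gzma and −0.30 for Prf1. The median depth, in units of 1000000 reads, was 36.8 in bonded, 46.5 in bond-disrupted and 43.9 in virgin animals, and the part of depth in the group differences was not tested.

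Across animals, Prf1, Nkg7, Gzma and Tbx21 were high and low together. The correlation of log2(FPKM + 1) over the 17 animals was r = 0.845 between Prf1 and Nkg7, 0.813 between Nkg7 and Tbx21, 0.779 between Gzma and Prf1, 0.741 between Prf1 and Tbx21, 0.738 between Gzma and Tbx21 and 0.694 between Gzma and Nkg7. For these 6 pairs Spearman's rho lay between 0.676 and 0.855, and the permutation p was at most 0.00116 for r and 0.00344 for rho, or 0.00193 and 0.00573 when adjusted over all 10 pairs. With the 2 most extreme animals of each pair left out, r was still 0.651 to 0.781. With the group means removed, r was 0.704 to 0.900 (adjusted permutation p at most 0.00475), so the relation held among animals of the same bonding history.

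Eomes was tied more loosely to the others in these data. Its r was 0.434 with Prf1, 0.426 with Tbx21, 0.409 with Nkg7 and 0.311 with Gzma, and the permutation p of these 4 pairs ran from 0.0804 to 0.223 (adjusted 0.110 to 0.223). Spearman's rho ran from 0.319 to 0.517, with a permutation p of 0.0356 to 0.213 (adjusted 0.0509 to 0.213), and without the 2 most extreme animals r was 0.118 to 0.338. BD5, for example, had 1.87 FPKM of Eomes, the second highest bond-disrupted value, beside 1.03 FPKM of Prf1. Whether the correlations with Eomes differ from those among the other 4 genes was not tested. The values of 1 animal come from 1 library and so share its depth and its mix of cells.

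**Figure D4:**
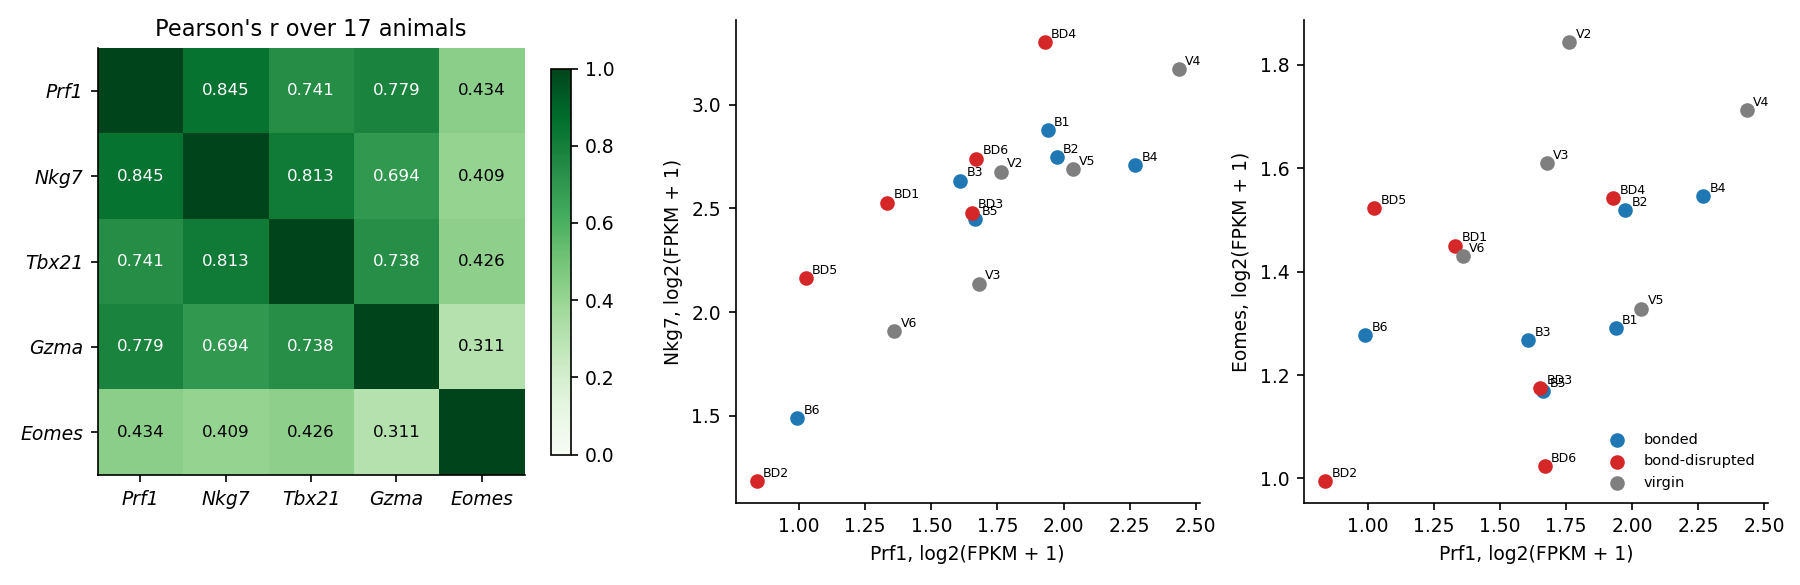
Left, Pearson's r between the 5 genes over 17 animals, on log2(FPKM + 1) values (darker green is higher). Middle and right, Nkg7 and Eomes against Prf1 in each animal on the same log2 scale, coloured by group; Nkg7 follows Prf1 from BD2 up to V4 (r = 0.845), while Eomes is scattered more widely (r = 0.434).

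To place the animals in an order, the 4 genes with at least 10 reads in every library (Prf1, Nkg7, Eomes and Tbx21) were standardised and averaged. V4 had the highest mean level (1.42 SD above the average animal), followed by BD4 (1.02) and V2 (0.91), and BD2 had the lowest (−1.82), followed by B6 (−1.27) and V6 (−0.65). Each group thus held animals near both ends. Of 13622 other genes with a mean of at least 1 FPKM, those whose levels over the 17 animals were most like this mean were LOC128094906, a protein-coding gene without a name (r = 0.913), and Il2rb (r = 0.885), the beta chain of the receptor for interleukins that sustain natural killer cells. They were followed by Cd7, a surface protein of T and natural killer cells (r = 0.866), Ccl5, a chemokine made by activated lymphocytes (r = 0.866), Spn, the leukocyte sialoglycoprotein CD43 (r = 0.851), S1pr4, a sphingosine phosphate receptor of lymphoid tissue (r = 0.849), Cd300a, an inhibitory receptor of leukocytes (r = 0.844), and Rasgrp1, which links the T cell receptor to Ras (r = 0.839). Il2rb ran from 1.48 to 6.97 FPKM and Ccl5 from 1.61 to 21.1 FPKM over the animals. These values of r are descriptions of the genes that scored highest and carry no test.

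Markers of other immune cells moved with the same animals. The summed FPKM of the B cell markers (6 of 6 listed genes in the table, none at 0 throughout) followed the mean level of the 4 genes with r = 0.810, and r was 0.767 without the 2 most extreme animals. For the T cell markers (8 of 13 in the table) r was 0.763, falling to 0.542 without BD2 and V4, and for genes of all leukocytes (4 of 4) it was 0.706, falling to 0.529 without BD2 and V6. It was 0.629 for erythroid genes, 0.554 for macrophage markers and 0.510 for neutrophil markers, and these fell to 0.374, 0.219 and 0.254 without their 2 most extreme animals. For type 2 and type 3 innate lymphoid markers r was 0.377, for lymph node markers 0.423, for mast cell markers 0.181, for thymocyte markers 0.382, for cardiac muscle genes −0.19 and for lung epithelial genes −0.24. A sum of FPKM follows its most abundant gene. Most of the epithelial sum was Scgb1a1, with a median of 83210.5 FPKM beside 20318 for Sftpc. Taken singly, r was −0.24 for Scgb1a1, −0.09 for Sftpb, 0.21 for Sftpc and 0.12 for Ager. The mast cell sum (4 of 7 listed genes) was mostly Kit, with a median of 18.2 FPKM. BD2 had the lowest sums of the T cell, B cell, macrophage, neutrophil, erythroid and leukocyte genes of all 17 animals, so its low values extended to these other lists. All 4 thymocyte markers stayed under 1 FPKM in every animal.

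**Figure D5:**
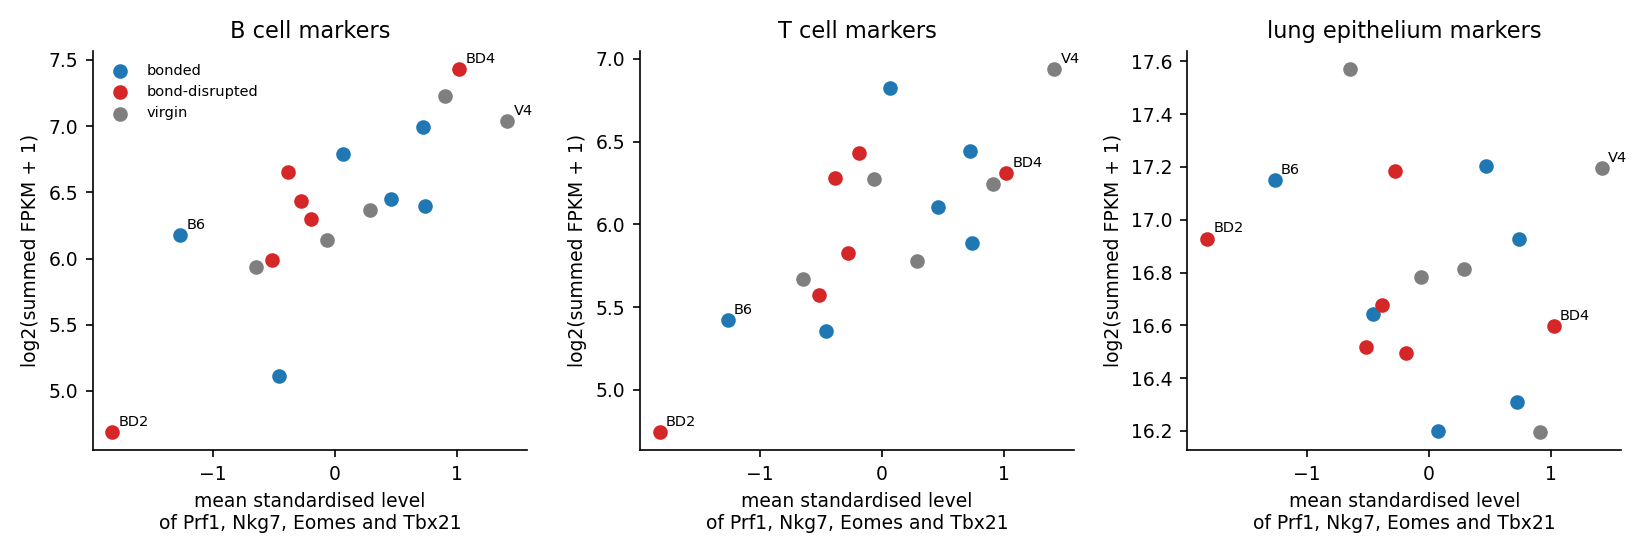
Summed FPKM of B cell, T cell and lung epithelial markers, as log2(sum + 1), against the mean standardised level of Prf1, Nkg7, Eomes and Tbx21 in each of the 17 animals, coloured by group. The B cell and T cell sums rise with the genes from BD2 at the lower left (r = 0.810 and 0.763), whereas the epithelial sum, most of it Scgb1a1, shows no such course (r = −0.24).

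The marker sums overlapped between the groups as the genes themselves did. The T cell sum was 40.0 to 113 FPKM in bonded (median 63.1), 25.8 to 85.5 in bond-disrupted (66.3) and 49.96 to 122 in virgin animals (74.8). The B cell sum was 33.5 to 126 (84.8), 24.8 to 172 (81.7) and 60.2 to 149 FPKM (81.5). Cd8a, the coreceptor of cytotoxic T cells, had means of 15.4, 12.2 and 17.7 FPKM in bonded, bond-disrupted and virgin animals, above the level of Prf1 in each group. The part of these cells in the differences between animals was not tested.

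Of 81 listed genes of killer cell receptors, granule contents, granule release, transcription factors, cytokines and their receptors and granzyme inhibitors (2 genes, neither with a row), 59 had a row and 52 passed the filter. None of these 52 was called in any of the 3 comparisons. At an unadjusted p under 0.05, 3 of 52 were lower in bond-disrupted than in bonded animals, where 3.12% of all genes were, and 0 were higher, where 2.81% were. In virgins 1 of 52 was higher than in bonded animals, where 2.22% of all genes were, and 0 of 52 passed in either direction against bond-disrupted animals, where 4.3% of all genes did. The medians over the 52 genes were −0.03, 0.07 and 0.11 in the 3 comparisons.

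The 3 lower genes were Klrg1, Prdm1 and Tnfsf10, and the higher gene was Crtam. Klrg1, an inhibitory receptor of mature natural killer and effector T cells, had the largest difference of the receptors, with 2.44 ± 1.60 FPKM in bonded animals (SD, n = 6) against 0.818 ± 0.235 in bond-disrupted animals (SD, n = 6), a difference in log2(FPKM + 1) of −0.80 ± 0.29 (SE, limma adjusted p = 0.793). Prdm1 (Blimp-1), a transcription factor of terminally differentiated lymphocytes, had 8.31 ± 1.67 FPKM in bonded and 5.19 ± 2.29 in bond-disrupted animals, a difference of −0.63 ± 0.28 (SE, limma adjusted p = 0.836). In virgins Prdm1 stood at 8.77 ± 4.54 FPKM, 0.58 ± 0.29 above the bond-disrupted animals on the log2(FPKM + 1) scale (SE, limma adjusted p = 0.948). Crtam, an adhesion receptor that activates cytotoxic lymphocytes, was at 0.953 ± 0.266 FPKM in virgins and 0.502 ± 0.258 in bonded animals (difference 0.39 ± 0.17, SE, limma adjusted p = 1.0). None of these differences passed the correction over all genes.

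The other genes named by the same rule did not pass an unadjusted p of 0.05. Il18, a cytokine that activates natural killer cells, was at 26.3 ± 6.65 FPKM in bonded and 20.4 ± 3.02 in virgin animals (difference −0.32 ± 0.19, SE, limma adjusted p = 1.0). Nfil3, a transcription factor needed for natural killer cell development, was at 1.90 ± 1.01 FPKM in bond-disrupted and 1.24 ± 0.449 in virgin animals (difference −0.34 ± 0.19, SE, limma adjusted p = 0.948). Tnfsf10, Gzmm and Gzmk were chosen after their values were seen. Tnfsf10 (TRAIL), a death ligand that lung cells of many kinds make, lay at 100.2 ± 26.9 FPKM in bond-disrupted and 128 ± 25.1 FPKM in bonded animals (difference −0.37 ± 0.17, SE, limma adjusted p = 0.841). Of the other granzymes in the table, Gzmm had 4.06 ± 0.443, 4.38 ± 1.11 and 4.79 ± 0.620 FPKM and Gzmk 0.688 ± 0.447, 0.545 ± 0.448 and 0.628 ± 0.409 FPKM in bonded, bond-disrupted and virgin animals. Gzmm was thus more abundant than Gzma in each group, and no difference between groups in either passed the test (limma, adjusted p at least 0.947).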

How the data were processed

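The authors extracted total RNA, made directional libraries (NEBNext Ultra II) and deposited FPKM, 1 column per animal and 0 columns left over. The submitters' processing notes name Trim Galore 0.4.5, STAR 2.7.2, SAMtools 1.5 and featureCounts of Subread 1.5.3; the genome build is not given in the sources used here. The column-wise shift of lengths was removed by solving depths and 26802 of 27787 lengths for whole numbers of reads (98.5% of 354634 values within 0.01 of a whole read). A solved length was multiplied by a whole factor where this brought its reads to the level of the same genes in the other animals. That factor was 2 for the length dividing Nkg7 in BD4, its highest value, and Prf1 in B5, BD2 (its lowest value) and BD5. Of the small RNA lengths, 1492 of 1514 equalled RefSeq (ASM782708v3). RefSeq lengths of small RNAs also set the depths, so this agreement is partly built in. Genes that reached 1 FPKM in any animal were tested on log2(FPKM + 1) with limma 3.58.1 in R 4.3.3, 3 groups in 1 fit, two-sided, Benjamini-Hochberg adjusted. They were called at an adjusted p under 0.1 and a difference of at least 1 on that scale in either direction. Correlations used 100000 permutations. Figures and tables used Python 3.11.15, numpy 2.4.6, scipy 1.17.1, pandas 2.3.3, numba 0.67.0 and matplotlib 3.10.9. The recovery of depths, lengths and reads and the main limma fit were tested on simulated data. The genes and lists were chosen with earlier results of these data known. Genes named beyond the 5 were the 2 wider-list genes of lowest p in each comparison and the 8 most like the mean level of the 4 well-covered genes; Tnfsf10, Gzmm and Gzmk, and the markers Cd8a and Sftpc, were singled out after their values were seen. Alternatives changed the pseudocount, filter, variance model, samples, scaling, length correction, thresholds, family block and voom, and left out each animal. The exact permutation tests were added after the data were seen. Sequences were not used here.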

Additional observations from a re-analysis of the deposited data

How the results depend on the processing

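No gene of the 5 was called under any alternative. Of 414 fold changes recomputed for them, 405 moved by less than the spread between animals and 9 by more, all 9 with the FPKM as deposited; 6 could not be computed, since Tbx21 fails a filter on a mean of at least 1 FPKM and Gzma gave no value when row, column and diagonal effects were fitted in place of lengths. Their lowest adjusted p was 0.728 in the other alternatives and 0.221 with the deposited values. The length shift changed the most: with the deposited FPKM, 40 genes were called between bond-disrupted and bonded animals, 113 between virgin and bonded and 35 between virgin and bond-disrupted, where own lengths gave 0 in each (910, 592 and 660 at an unadjusted p under 0.05), and the median over the 5 genes went to −0.62 between bond-disrupted and bonded and to −0.33 between virgin and bonded animals, while between virgin and bond-disrupted animals it was 0.22 against 0.30.

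With no minimum fold change, 1, 3 and 2 genes were called in the 3 comparisons in this order. With a pseudocount of 0.1, 1 gene was called between virgin and bonded and 1 between virgin and bond-disrupted animals, and with voom 2 and 1. Between virgin and bonded animals 2 were called with only the 2 groups compared, 1 with quantile normalization and 1 with a median-ratio factor. Leaving out each animal in turn gave 0 to 1 called genes between bond-disrupted and bonded animals (1 without B4 or B6), 0 to 1 between virgin and bonded (1 without B4, BD1, BD2, BD4 or V4) and 0 to 2 between virgin and bond-disrupted (2 without BD6, 1 without V3 or V4). No call was a gene described here. Of the recomputed values of their 15 fold changes, 19 had the other sign in an alternative on own lengths. The main coefficients concerned lay between −0.12 and 0.12. The values reached 0.16 for Nkg7 between bond-disrupted and bonded animals without BD2 and −0.17 for Nkg7 between virgin and bonded animals without B6. Nkg7 also changed sign between virgin and bond-disrupted animals without BD2 (−0.13) or V4 (−0.05), and Gzma between bond-disrupted and bonded animals without B1 (0.00) or with voom (0.05). With row, column and diagonal effects in place of solved lengths, the median over the genes left was 0.06 between virgin and bonded and 0.20 between virgin and bond-disrupted animals. Prf1 then came to 0.28 between virgin and bond-disrupted animals and to −0.20 between bond-disrupted and bonded animals. With a filter on a mean of at least 1 FPKM the median was 0.18 between virgin and bonded animals.

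With the family number as a replicate block, 0, 1 and 1 genes were called, the medians over the 5 genes were −0.12, 0.13 and 0.31, and no gene of the 5 passed. Same-numbered animals are relatives, but not every pair deviated together: deviations from the group means correlated at 0.0844 to 0.401 in the 6 pairs of bonded and bond-disrupted siblings (5 above 0.1) and at −0.328 to 0.164 in the pairs with a virgin. The block therefore stayed an alternative. The 4 reads of Gzma in B6 were the fewest behind any value of the 5 genes. No animal stood apart from its group by Dixon's test in 15 sets of values.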
